A study of Mus musculus with 8 samples.

Results

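The retinoic acid receptor genes Rara, Rarb and Rarg and the retinoid X receptor genes Rxra, Rxrb and Rxrg were followed in mouse AML12 hepatocytes with and without v-erbA. Every probe set that the platform annotation names by 1 of these 6 symbols was taken. They were 9 of the 45037 probe sets on the arrays, 3 for Rxra, 2 for Rarg and 1 for each of the other genes. AML12 is a hepatocyte line derived from mice that carry a transforming growth factor alpha transgene, and all groups share that origin. v-erbA comes from avian erythroblastosis virus and is an altered copy of the thyroid hormone receptor encoded by Thra, which no longer answers to the hormone and holds receptor target genes down.

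The 8 groups held 1 array each. They were v-erbA-transfected AML12 cells with 1 µM retinoic acid (RA) at 24 h and at 3 h, the same transfected line untreated at 24 h and at 3 h, AML12 cells with 1 µM RA at 24 h and at 3 h, and untreated AML12 cells at 24 h and at 3 h. Groups follow the sample titles, although the descriptions of 3 of the 4 later samples give 3 h. Samples without RA are named control in the titles, which do not mention a vehicle, and are called untreated here. The labels do not say whether the transfected line is 1 clone, which promoter drives v-erbA or whether the AML12 controls carry an empty vector, so an effect of v-erbA cannot be told apart from one of transfection or clone. The design asks which RA-regulated genes respond differently when v-erbA is present, and these receptors are the proteins through which RA acts.

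RARs bind all-trans RA and act as heterodimers with RXRs on direct repeats of a short half-site in DNA, where they hold corepressors without ligand and recruit coactivators with it. RXRs also pair with thyroid hormone, vitamin D, bile acid, oxysterol and fatty acid receptors, and RXR alpha is known as the main RXR of the liver. Rarb is a classical target of its own receptor family, through a direct repeat spaced by 5 bases close to the start of one of its promoters.

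The promoter of Rarb is shown because Rarb was the receptor gene whose signal was higher with RA on every pair of arrays. The sequence is the 250 bases before the RefSeq start on the minus strand, chr14:16575477-16575726 of GRCm38.p6, with both half-sites of the repeat in capitals. A shorter stretch is shown beside it for Cyp26a1, an RA-degrading enzyme and another classical target, with the repeat at chr19:37697776-37697792 of the same build, on the strand opposite to the gene.
Rarb promoter: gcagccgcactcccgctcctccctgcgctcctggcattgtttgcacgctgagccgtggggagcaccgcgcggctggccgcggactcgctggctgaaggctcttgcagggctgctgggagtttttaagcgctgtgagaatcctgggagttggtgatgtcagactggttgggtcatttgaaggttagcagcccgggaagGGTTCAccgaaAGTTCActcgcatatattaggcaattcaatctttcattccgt
Cyp26a1 repeat: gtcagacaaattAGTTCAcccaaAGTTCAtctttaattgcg

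The half-sites searched were AGNTCA and GGNTCA with G or T at N, taken in any pair as a direct repeat with 1, 2, 4 or 5 bases between them, on both strands. In Rarb the repeat of GGTTCA and AGTTCA with 5 bases between lay at -53 to -37 from the start, on the strand of the gene. In Cyp26a1 it lay at -32 to -16. Such a repeat with a spacing of 5 was held by 0.0974% of the 32851 RefSeq promoter windows, each of 300 bases from 250 before to 50 after a start. Of the 13 windows of the 6 receptor genes only that of Rarb held it, and 0 held a repeat with a spacing of 1, 2 or 4. The RA targets listed further below were searched too, where they had a window, and only Cyp26a1 held any of these repeats. The windows of Nrip1 (2) and Dhrs3 (3), the targets called for RA, held none. No match in such a window says only that these letters are not there.

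The arrays had median signals of 71.2 to 76.1 units on a linear scale, and the median of all signals pooled was 73.5 units. No detection calls were used, and signals under that pooled median are called dim here. Hepatocyte markers were measured for 9 of the 10 listed genes, 7 of them above the pooled median on all 8 arrays, with albumin (Alb) at 9364 units or more on every array. Endothelial markers were above it on all 8 arrays for 0 of 5 genes, macrophage markers for 1 of 5 and mesenchymal markers for 2 of 5, while 4 of 4 biliary markers were. The summed hepatocyte marker signal was 26908 to 31509 units in the v-erbA line and 29107 to 37262 units in AML12. The summed biliary signal was 3240 to 4125 units and 4772 to 5953 units. Alb and transthyretin (Ttr, 10526 to 10879 units) made up most of the hepatocyte sum. It therefore says little of markers such as Apoa1 (200 to 7093 units over the 8 arrays) and Serpina1b (779 to 5325 units). The part of these markers in the results below was not tested. In these bulk samples, fewer cells of a type and less RNA per cell cannot be told apart.

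Tests were limma fits on log2(signal + 19.95) over the 21319 probe sets that name 1 gene and exceed the pooled median on at least 2 of the 8 arrays. Of the 9 receptor probe sets 7 passed this filter. The single Rara probe set and the Rxra probe set 1430497_at were dim on all 8 arrays and were left out of these tests. No group was replicated, so the spread in these tests is the departure of the arrays from additive effects of line, treatment and time, and p-values measure only that.

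**Figure D1:**
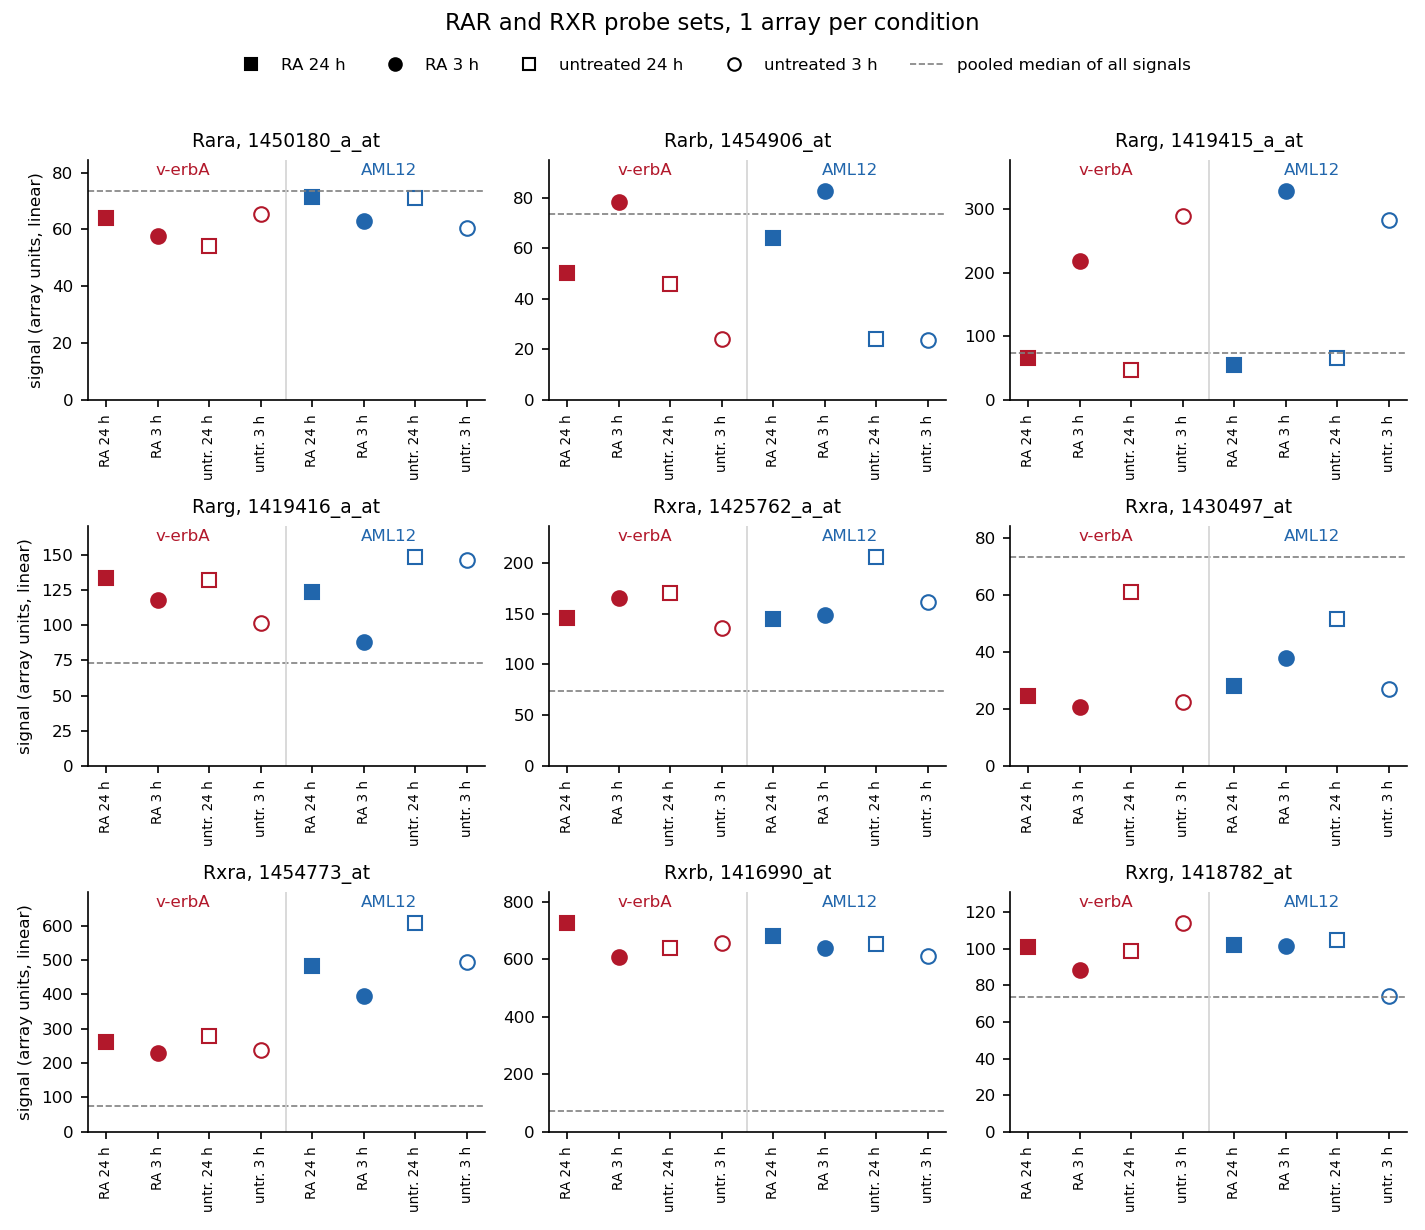
Signal in linear array units (vertical axes, from 0) of the 9 RAR and RXR probe sets on the 8 arrays (horizontal axes), v-erbA line in red and AML12 in blue, filled symbols with RA and open ones untreated, squares 24 h and circles 3 h. The dashed line is the pooled median of 73.5 units. In Rxra 1454773_at all v-erbA points lie below all AML12 points, in Rarb all RA points lie above all untreated ones, and in Rarg 1419415_a_at all 24 h points lie below all 3 h points.

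Rxra was lower in the v-erbA line on 1 of its 3 probe sets. On 1454773_at the v-erbA line read 260.1 and 229.6 units with RA at 24 h and 3 h and 277.8 and 237.9 units untreated at 24 h and 3 h, against 481.6 and 394.2 units with RA and 608.3 and 494.3 units untreated in AML12. The lines did not overlap, the highest v-erbA array lying below the lowest AML12 array. The mean was 251 ± 22 units in the v-erbA line and 495 ± 88 units in AML12 (SD, n = 4 arrays each, over both treatments and times). Within the 4 matched pairs the v-erbA signal was 0.457 to 0.583 of the AML12 signal. The log2 difference was -0.91 ± 0.07 (SE, 95% interval -1.06 to -0.76, limma adjusted p = 4.73e-06). Among all tested probe sets 52.1% were called for the line, 26.8% as higher and 25.3% as lower in the v-erbA line, so a call alone was common. Of the calls for the line 51.4% were higher, against 43.8% with arrays centred on their medians. A change at least as large in either direction was seen in 3.51% of all tested probe sets.

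The other tested Rxra probe set did not show that difference. On 1425762_a_at the v-erbA line read 146 and 165 units with RA at 24 h and 3 h and 171 and 135 units untreated, against 145 and 148 units with RA and 206 and 162 units untreated in AML12. The lines overlapped, and v-erbA was lower in 2 of 4 pairs. The log2 difference was -0.08 ± 0.10 (95% interval -0.31 to 0.15, limma adjusted p = 0.538), an interval that does not reach the change of 1454773_at. The dim probe set 1430497_at ranged from 20.5 to 61.3 units in the v-erbA line and from 27.1 to 51.5 units in AML12, and gives no fold. Of 249 probe sets that were called and lower by at least as much as 1454773_at, and whose gene had another tested probe set, 90.0% had another one called lower too. Where the 3 Rxra probe sets lie in the transcripts is not given in the sources used here.

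Rxra 1454773_at also varied with time and, without passing, with RA. It was higher at 24 h than at 3 h in 4 of 4 pairs, by 0.23 ± 0.07 (95% interval 0.09 to 0.38, limma adjusted p = 0.0233), where 31.4% of all tested probe sets were called, 17.2% as higher and 14.2% as lower at 24 h. Of the calls for time 54.7% were higher, against 42.6% with arrays centred on their medians. The Rxra call was lost without the untreated AML12 array at 24 h (adjusted p = 0.0597), the AML12 RA array at 3 h (0.0965), the untreated v-erbA array at 3 h (0.0795) or the v-erbA RA array at 24 h (0.0744), all from limma. RA was below untreated in 4 of 4 pairs, at 0.936 and 0.965 of the untreated signal in the v-erbA line at 24 h and 3 h, against 0.792 and 0.797 in AML12. The averaged difference of -0.19 ± 0.07 did not pass (limma adjusted p = 0.300). By line it was -0.07 ± 0.08 in the v-erbA line and -0.32 ± 0.08 in AML12, and the difference of these responses, 0.25 ± 0.12 (95% interval -0.02 to 0.52), did not pass either (limma adjusted p = 1.00).

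Ordered by level, all 4 AML12 arrays of Rxra 1454773_at stood above all 4 v-erbA arrays. Untreated AML12 at 24 h was at the top and the v-erbA line with RA at 3 h at the bottom. Of the 7 gaps between neighbours only that between the lines, 0.48 on the log2 scale, exceeded 0.30, the half-width of the 95% interval for a difference of 2 single arrays. Among the tested Rxra values, untreated AML12 at 24 h was also the highest array on 1425762_a_at.

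Rarb was the receptor gene with the largest difference under RA, without passing the test. On 1454906_at RA arrays read 50.3 and 78.5 units in the v-erbA line at 24 h and 3 h and 64.2 and 82.7 units in AML12, against 45.7 and 24.0 units in the untreated v-erbA line and 24.2 and 23.6 units in untreated AML12. RA was higher in 4 of 4 pairs and the treatments did not overlap, although the lowest RA array, v-erbA at 24 h, stood only just above the highest untreated one, also v-erbA at 24 h. The mean was 68.9 ± 14.7 units with RA and 29.4 ± 10.9 units untreated (SD, n = 4 arrays each, over both lines and times).

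The averaged log2 difference was 0.86 ± 0.18 (95% interval 0.45 to 1.27, limma adjusted p = 0.0665), and 1.22% of all tested probe sets were called for RA, 0.769% as higher and 0.45% as lower. A change of at least this size was seen in 0.122% of them. Rarb entered the test only through its RA arrays at 3 h, the only ones above the pooled median, so it had to differ to be tested. Over all 34944 probe sets that name 1 gene, with no filter, the limma adjusted p was 0.0470. The mean with RA lay below the pooled median, so no fold is given over both times. At 3 h the RA mean of 80.6 units was 1.10 times the pooled median.

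The RA difference of Rarb was 0.51 ± 0.22 at 24 h and 1.20 ± 0.22 at 3 h, on the log2 scale (limma adjusted p = 0.351 and 0.0907), where 1.33% and 0.281% of all tested probe sets were called. The difference of these, 24 h minus 3 h, was -0.69 ± 0.31 (95% interval -1.39 to 0.02, limma adjusted p = 0.687). By line it was 0.63 ± 0.25 in the v-erbA line and 1.08 ± 0.25 in AML12 (limma adjusted p = 1.00 and 0.143). The difference between lines was -0.45 ± 0.36 (95% interval -1.26 to 0.35, limma adjusted p = 1.00), which neither shows a difference nor shows that the lines respond alike. At 24 h both arrays of each pair were dim and give no fold. At 3 h the untreated arrays were dim, and RA was at least 1.07-fold higher in the v-erbA line and at least 1.13-fold higher in AML12. The untreated v-erbA array at 24 h read 45.7 units, against 23.6 to 24.2 units on the other 3 untreated arrays.

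Single arrays decided whether Rarb passed for RA. Without the untreated v-erbA array at 24 h the difference was 1.07 (limma adjusted p = 0.0245), and without the v-erbA RA array at 24 h it was 1.02 (adjusted p = 0.0483). With the 4 arrays of 24 h alone, 0.51 did not pass (limma adjusted p = 0.369), and with the 4 arrays of 3 h alone, 1.20 did (adjusted p = 4.50e-04); either fit has 1 residual degree of freedom. By line Rarb differed by 0.07 ± 0.18 and by time by -0.04 ± 0.18, neither of them past the threshold (limma adjusted p = 0.785 and 0.877). Of the 7 gaps between neighbouring arrays in the order of levels, 0 exceeded the half-width of 0.82 for 2 single arrays.

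**Figure D2:**
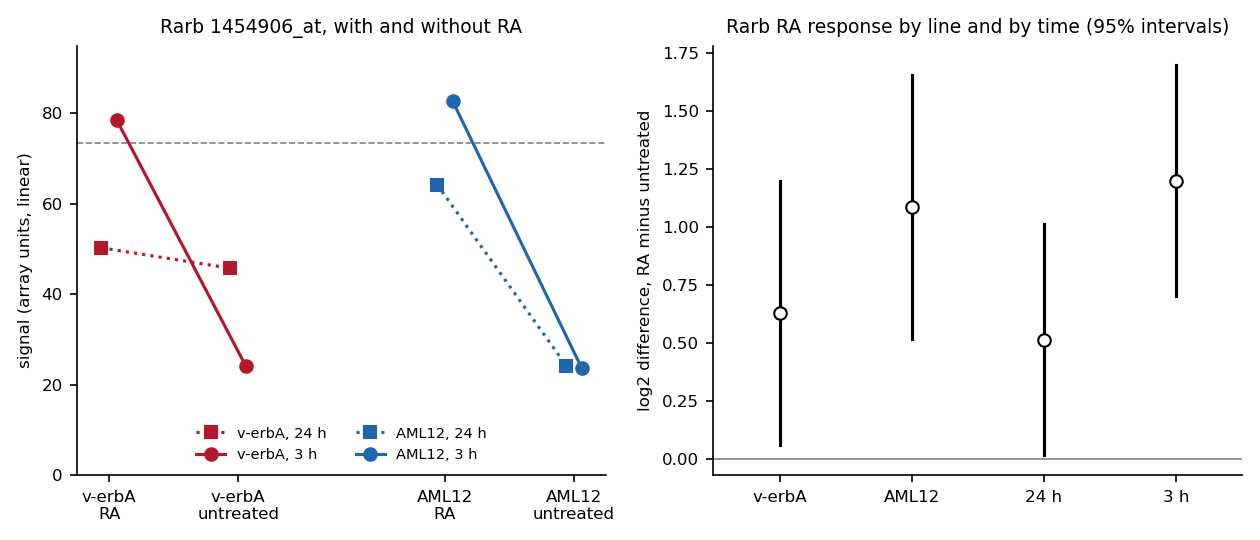
Rarb probe set 1454906_at. Left, signal in linear array units with RA and untreated for each line, squares and dotted lines 24 h, circles and solid lines 3 h, the dashed line being the pooled median of 73.5 units. Right, log2 difference of RA minus untreated by line and by time, points from the limma fits with unadjusted 95% intervals as bars, open because none passed the adjusted threshold. The lines of 3 h fall steeply toward untreated in both cell lines, and the flattest is v-erbA at 24 h.

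Rarg was lower at 24 h than at 3 h on 1 of its 2 probe sets. On 1419415_a_at arrays of 24 h read 66.0 and 47.1 units in the v-erbA line with RA and untreated and 54.7 and 66.3 units in AML12, against 219 and 289.7 units in the v-erbA line and 329 and 283 units in AML12 at 3 h. Times did not overlap, and all 4 arrays of 24 h were dim. The signal at 24 h was thus at least 3.77-fold lower, the geometric mean of 3 h being set against the pooled median. The log2 difference as measured was -1.93 ± 0.12 (95% interval -2.20 to -1.66, limma adjusted p = 1.51e-06). This probe set entered the test only through its 3 h arrays, so it had to differ to be tested. Over all probe sets with no filter the limma adjusted p was 3.29e-07. For time 31.4% of all tested probe sets were called, 14.2% as lower at 24 h. A change at least as large in either direction was seen in 1.89% of the tested probe sets.

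The other Rarg probe set pointed the other way. On 1419416_a_at arrays of 24 h read 134 and 132 units in the v-erbA line with RA and untreated and 124 and 149 units in AML12, against 118 and 102 units in the v-erbA line and 88.4 and 146 units in AML12 at 3 h. It was higher at 24 h in 4 of 4 pairs, by 0.23 ± 0.12 (95% interval -0.04 to 0.49), and did not pass (limma adjusted p = 0.177), but passed without the untreated AML12 array at 3 h (0.34, adjusted p = 0.0466). Of 77 probe sets that were called and lower by at least as much as 1419415_a_at at 24 h, and whose gene had another tested probe set, 23.4% had another one called lower too. Time cannot be told apart from anything else that differs between the 24 h and the 3 h arrays.

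By line and by RA Rarg did not pass on either probe set. Between the lines 1419415_a_at differed by -0.17 ± 0.12 and 1419416_a_at by -0.04 ± 0.12, and with RA by -0.00 ± 0.12 and -0.16 ± 0.12 (limma adjusted p from 0.263 to 0.993). The RA response of 1419416_a_at was 0.10 ± 0.13 in the v-erbA line and -0.42 ± 0.13 in AML12. Their difference of 0.52 ± 0.18 (95% interval 0.11 to 0.93) had an unadjusted limma p of 0.0182 and an adjusted p of 1.00.

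Rxrb, the broadly expressed RXR, had the lowest coefficient of variation of the receptors. Probe set 1416990_at read 727 and 607 units with RA at 24 h and 3 h and 641 and 659 units untreated in the v-erbA line, against 683 and 641 units with RA and 655 and 612 units untreated in AML12. Its coefficient of variation over the 8 arrays was 5.94%, against 9.53% (the dim Rara probe set) to 72.2% for the other 8 receptor probe sets. How far that value goes with signal was not tested. Rxrb 1416990_at was also the brightest, with a mean of 653 units against 34.1 to 373 units for the others. It differed by 0.02 ± 0.06 between lines (95% interval -0.10 to 0.15), by 0.05 ± 0.06 with RA (-0.08 to 0.17) and by 0.10 ± 0.06 with time (-0.02 to 0.22), and passed for none (limma adjusted p from 0.201 to 0.834).

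Rxrg, the RXR of muscle and nervous tissue, lay above the pooled median on all 8 arrays, by little. Probe set 1418782_at read 101 and 88.4 units with RA at 24 h and 3 h and 98.8 and 114 units untreated in the v-erbA line, against 102 and 101 units with RA and 105 and 74.0 units untreated in AML12. The untreated AML12 array at 3 h was the lowest and the untreated v-erbA array at 3 h the highest, and the lines overlapped. The differences were 0.07 ± 0.11 by line, 0.01 ± 0.11 by RA and 0.10 ± 0.11 by time, and none passed (limma adjusted p from 0.533 to 0.983).

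Rara, the broadly expressed RAR, was dim throughout on its single probe set 1450180_a_at. It read 64.1 and 57.7 units with RA at 24 h and 3 h and 54.0 and 65.3 units untreated in the v-erbA line, against 71.3 and 62.8 units with RA and 71.1 and 60.5 units untreated in AML12. The lines overlapped, and v-erbA was lower in 3 of 4 pairs. At these signals no fold is given, and a difference in Rara was not detectable here.

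**Figure D3:**
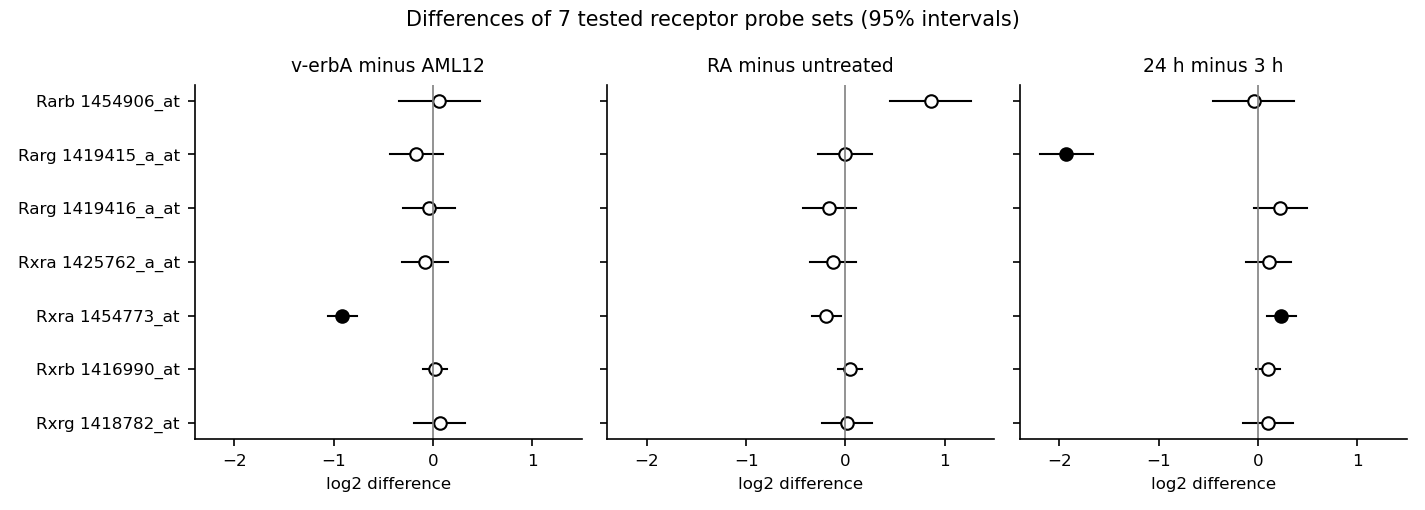
Log2 differences (horizontal axes) of the 7 tested receptor probe sets from the additive limma fit, for v-erbA minus AML12, RA minus untreated and 24 h minus 3 h, each over 4 matched pairs; bars are unadjusted 95% intervals and filled points passed an adjusted p of 0.05. The filled points are Rxra 1454773_at for line (-0.91) and time (0.23) and Rarg 1419415_a_at for time (-1.93).

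Across the 7 tested receptor probe sets, 1 was called for the line (lower), 0 for RA and 2 for time (1 higher, 1 lower), where 52.1%, 1.22% and 31.4% of all tested probe sets were called. The limma counts at an unadjusted p under 0.05 were 1, 2 and 2, where 58.1%, 10.8% and 42.7% of all were at that level. No receptor probe set was called in the tests of differences between effects. For RA by line 0 of 7 passed, 1 with an unadjusted p under 0.05 (Rarg 1419416_a_at), and 0% of all tested probe sets were called, 1.85% having an unadjusted p under 0.05. For RA by time 0 of 7 passed, 1 with an unadjusted p under 0.05 (Rxra 1425762_a_at, -0.40 ± 0.17), where 0.00938% of all were called and 7.26% had such a p. For the v-erbA effect by time 0 of 7 passed, none with an unadjusted p under 0.05, where 0.0985% of all were called and 8.53% had such a p. Within the lines 0 of 7 passed for RA in the v-erbA line and 0 of 7 in AML12, where 0.00938% and 0.371% of all tested probe sets were called. At an unadjusted limma p under 0.05 these were 1 (Rarb) and 3 (Rarb, Rxra 1454773_at and Rarg 1419416_a_at), where 3.41% and 9.9% of all tested probe sets were at that level.

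The v-erbA difference of Rxra 1454773_at was present in every split of the arrays. It was -0.96 ± 0.09 at 24 h and -0.86 ± 0.09 at 3 h (limma adjusted p = 1.24e-04 and 2.83e-04), where 41.5% and 35.2% of all tested probe sets were called. It was -0.79 ± 0.08 under RA and -1.04 ± 0.08 untreated (limma adjusted p = 2.52e-04 and 5.69e-05), where 31.1% and 34.3% were called.

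**Figure D4:**
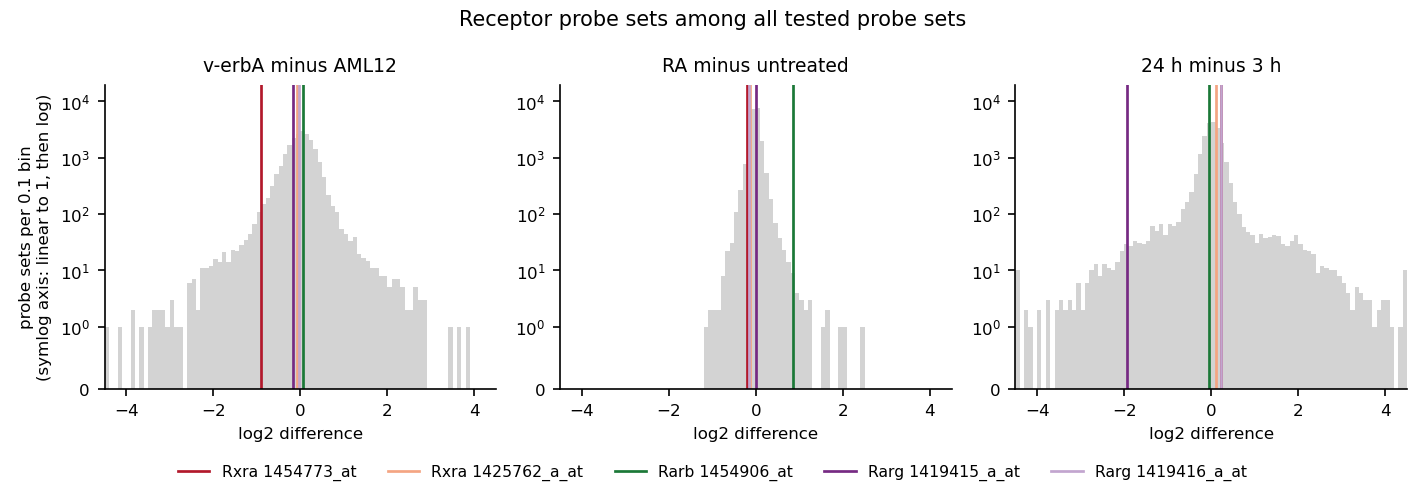
Number of tested probe sets per 0.1 bin of log2 difference (grey bars, vertical axis linear to 1 and logarithmic above, the end bins holding everything beyond) for line, RA and time, with 5 receptor probe sets as coloured lines. Rxra 1454773_at stands in the lower shoulder for line, Rarb in the upper tail for RA and Rarg 1419415_a_at in the lower tail for time, while the second probe sets of Rxra and Rarg stand near 0.

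The genes whose pattern over the 8 arrays was most like that of each receptor were taken among 11875 tested probe sets with a log2 range of at least 0.5, by Pearson's correlation of log2 levels. The arrays share line, treatment and time, so these values are a description only. For Rarb they were Epn2 (r = 0.940), the corepressor Nrip1 on 1 of its probe sets (0.935) and the bile acid transporter subunit Slc51b (0.915). For Rxra 1454773_at they were the semaphorin Sema3f (0.995), the peroxisome biogenesis gene Pex16 (0.994) and A530020G20Rik (0.994). For Rarg 1419415_a_at they were the protease Prss22 (0.997), Magel2 (0.996) and the phosphatase Ptpra (0.995). For Rxrg, with a range of 0.51, they were Aff3 (0.968), Cep57l1 (0.922) and the collagen Col14a1 (0.904). Rxrb (range 0.25) and Rara (dim) had no pattern to match.

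Of the genes that RARs are known to switch on, Nrip1 and Dhrs3 rose with RA. Of 15 listed RA targets 13 were measured and 9 tested. With RA 2 rose and 0 fell, where 0.769% of all tested probe sets rose and 0.45% fell. The median difference was 0.22, against -0.00 over all tested probe sets. This list and those below were chosen with earlier results of these data known, so their counts and medians are a description only. Nrip1 averaged 1070 units with RA and 325 units untreated and rose by 1.67 ± 0.11 (limma adjusted p = 0.00101), and the retinaldehyde reductase Dhrs3 averaged 1396 and 910 units and rose by 0.67 ± 0.10 (adjusted p = 0.0172). Cyp26a1 averaged 72.2 units with RA and 59.6 units untreated, both under the pooled median, with 2 of 4 RA arrays and 1 of 4 untreated arrays above it, and did not pass (limma adjusted p = 0.539). Nrip1 was called for RA in the v-erbA line (1.62 ± 0.17, limma adjusted p = 0.0456) and in AML12 (1.73 ± 0.17, limma adjusted p = 0.00728). For the difference between lines 0 of 9 targets were called, where 0% of all tested probe sets were. That count therefore does not show that the targets respond alike in both lines. By line 2 targets were higher in v-erbA cells and 2 lower, where 26.8% and 25.3% of all tested probe sets were. Among them the homeobox gene Meis1 averaged 171 units in the v-erbA line and 59.6 units in AML12, with 1 of the 4 AML12 arrays above the pooled median (1.27 ± 0.08 as measured, limma adjusted p = 2.34e-06).

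Among the receptors that share RXRs as partners, the share called for the line was near that of all tested probe sets. Of 13 listed 12 were measured and 10 tested, and 3 were higher and 2 lower in the v-erbA line, against 26.8% and 25.3% of all, with a median of -0.06 against 0.02 over all tested probe sets. Pparg, the adipogenic fatty acid receptor, averaged 187 units in the v-erbA line and 80.2 units in AML12, with 2 of the 4 AML12 arrays above the pooled median (1.05 ± 0.09 as measured, limma adjusted p = 1.50e-05). The orphan receptor Nr4a1 averaged 90.9 and 44.0 units and was at least 1.22-fold higher, all 4 AML12 arrays being dim. Thra, the cellular counterpart of v-erbA, rose by 0.41 ± 0.06 and the oxysterol receptor Nr1h3 fell by 0.32 ± 0.08 (limma adjusted p = 4.32e-04 and 0.00516). With RA 0 rose and 1 fell, against 0.769% and 0.45% of all. That was Ppara, the receptor of fatty acid oxidation, with 491 units with RA and 955 units untreated (-0.93 ± 0.11, limma adjusted p = 0.00511).

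Of 16 listed coregulators 14 were measured and tested. In the v-erbA line 5 were higher and 3 lower, close to the 52.1% called among all tested probe sets, with a median of 0.09. With RA 0 of 14 were called, where 1.22% of all were, with a median of 0.03. The coactivator Ncoa1 averaged 343 units in the v-erbA line and 184 units in AML12 (0.84 ± 0.08, limma adjusted p = 3.16e-05), the corepressor scaffold Sin3a rose by 0.28 ± 0.06 and the deacetylase Hdac3 fell by 0.26 ± 0.05 (adjusted p = 0.00260 and 0.00190). Of 15 listed genes of retinoid supply and breakdown 14 were measured and 9 tested, with 2 higher and 4 lower in the v-erbA line, against 26.8% and 25.3% of all, and a median of -0.05. The alcohol dehydrogenase Adh1 averaged 73.3 units in the v-erbA line and 869 units in AML12, with 2 of the 4 v-erbA arrays above the pooled median (-3.09 ± 0.22 as measured), and the carotenoid-cleaving enzyme Bco1 averaged 136 and 569 units (-1.87 ± 0.14; limma adjusted p = 4.27e-06 and 5.75e-06). Fabp5, a fatty acid carrier that also binds RA, rose by 0.78 ± 0.05 (limma adjusted p = 1.60e-06). With RA 1 of the 9 rose and 0 fell, against 0.769% and 0.45% of all, the retinol dehydrogenase Rdh10 by 0.42 ± 0.07 (limma adjusted p = 0.0181).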

How the data were processed

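Per the labels' protocols, total RNA was biotin-labelled and run on Affymetrix arrays. The deposited values are signal intensities, 1 for each probe set of an array, unlogged and between 0 and 12275 units; how probes were summarized and arrays scaled is not given in the sources used here. Of 45037 probe sets, 1 without a full set of values was left out. The platform annotation names 1 gene for 34944, several for 932 and none for 9160; only the first kind was used. The file holds 0 manufacturer control probe sets.

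Values became log2(signal + 19.95), the 20th percentile of all signals. Linear models were fitted by limma 3.58.1 (R 4.3.3), its prior variance following the mean level, with Benjamini-Hochberg adjustment over 21319 probe sets. The code was run on simulated data with additive effects and independent noise. That run does not test the p-values of unreplicated arrays, whose spread can hold interactions and effects shared by an array. The additive model has line, treatment and time; differences between effects add 1 interaction. No set test was run. Figures used matplotlib 3.10.9. A gene of a list was taken by its probe set with the highest mean, with 2 to 4 of the largest called changes as examples, and likeness used the 3 highest correlations. Members and lists were chosen with earlier results of these data known, and the DNA repeats after the values were seen. The number of arrays limits the precision.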

Additional observations from a re-analysis of the deposited data

How the results depend on the processing

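The line call of Rxra 1454773_at (-0.96 to -0.84) and the time call of Rarg 1419415_a_at (-2.24 to -1.60) held under all 19 and 17 alternatives run. Rarb passed for RA under 5 of 19. The receptor count for RA was 0 with other offsets, scalings, no trend, 1 probe set per gene, the 4 matched pairs as blocks or the 24 h arrays alone; it was 1 with no filter, 1 with all 2-way interactions, 1 with the 3 h arrays alone, and 0 to 1 with an array left out. For time it was 1 to 3 with an array left out. Of the 894 alternative values of all single probe sets, these included, 85 that never passed changed sign, 6 newly passed, 4 no longer passed and 0 that had passed reversed. Over all probe sets, 260 were called for RA, against 36 without the trend, 141 with 1 probe set per gene, 1271 with all 2-way interactions, 761 with 3 h arrays alone and 61 to 267 with an array left out. For RA by line 0 were called, 0 to 7 with an array left out; for RA by time 2, against 1 with an offset of 50 or quantile normalization, 0 without the trend and 0 to 131 with an array left out; for line by time 21, against 34 with no filter, 12 with 1 probe set per gene and 6 to 307 with an array left out. For v-erbA 11100 and for time 6696 were called, against 6421 and 4164 with 1 probe set per gene. The setting with 1 probe set per gene tests fewer probe sets and the one with no filter more, so these counts do not compare shares. Time gave 3660 higher and 3036 lower calls, against 2890 and 3900 with arrays centred on their medians. No paired analysis by replicate number was possible because the labels give none. Signals near or under the pooled median limit what can be said of Rara, Rarb, Rxrg and Rarg at 24 h.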
